A study of Mus musculus with 4 samples.

Results

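Mural cells wrap the walls of blood vessels: pericytes sit on capillaries, and vascular smooth muscle cells sit on arterioles and venules. They were selected on their measured values, as the cells of 1 single-cell library of the LATS1/2 KO intestine with at least 1 UMI (unique molecular identifier, which stands for 1 captured mRNA molecule) in at least 3 of the 5 genes Rgs5, Vtn, Higd1b, Ndufa4l2 and Gja4. The rule found 57 of 4108 cells, or 1.39% (95% exact binomial interval 1.05% to 1.79%), which left 4051 other cells. Mural cells are recruited and kept on the endothelial tube by PDGF-B acting on the receptor PDGFRB, and Notch ligands on neighbouring cells act on their NOTCH3 receptor. They set vessel tone through smooth muscle actin and myosin, through receptors for circulating and nerve-derived signals, and through ion channels, and they lay down part of the vascular basement membrane.

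The study sorted tdTomato-positive intestinal stromal cells from adult C57BL/6J mice that carry a Pdgfrb promoter-driven, tamoxifen-inducible Cre (Pdgfrb-Cre-ERT2), with or without floxed Lats1 and Lats2 alleles (Lats1 f/f Lats2 f/f), and asked which stromal cells respond when the Hippo kinases LATS1 and LATS2 are removed and the coactivators YAP and TAZ become hyperactive. The series held 4 samples: 2 wild-type libraries and the LATS1/2 KO libraries labelled 1w and 2w. The KO 1w library was analysed, and the other 3 were not used here, so nothing below compares genotypes or times. The outer muscle and serosa had been stripped, leukocytes, epithelium and CD31-positive endothelium had been depleted before the sort, and the authors removed clusters of immune and endothelial cells, so mural cells here are those that survived dissociation, expressed the reporter and passed these steps. As Cre is driven by Pdgfrb, mural cells themselves were among its targets, and the library does not show in which cells Lats1 and Lats2 were deleted, since reads of the 3-prime end need not cover the deleted part.

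The library held 46054627 UMIs, with 1965 to 35727 per cell. Its columns carried the marks M (1983 cells) and F (2125 cells), which followed Xist and split 1 library rather than 2 samples. No barcode occurred in more than 1 column. Cells of 1 library are not replicates, so no test between groups of cells was made. Each level below is a pooled level in CPM (UMIs per 1000000 UMIs of the cell set), and a range in parentheses after a ratio of 2 levels is its 95% exact interval, which covers counting error only.

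The 57 mural cells held 463428 UMIs together and a median of 6397 each (2713 to 26031), against a median of 10766 in the other cells. The median mitochondrial share was 5.17% in mural cells and 4.86% in the other cells. Of the 57, 26 carried the mark M and 31 the mark F.

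The 5 genes of the rule are given as a description, since they chose the cells. Rgs5, a regulator of G protein signalling and the usual pericyte marker, was not restricted to mural cells: 2838 other cells, 70.1%, had a UMI, at a pooled level of 468 against 3092 in mural cells. Ndufa4l2, a hypoxia-inducible mitochondrial protein, was found in all 57 mural cells and in 153 others, and Vtn, which encodes the adhesive glycoprotein vitronectin, in 49 and 26. Gja4, a gap junction connexin, was found in 36 mural and 10 other cells, and Higd1b, an inner mitochondrial membrane protein, in 11 and 22. Rgs5 alone therefore did not set the mural cells apart.

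By number of rule genes, 1110 cells had 0, 2833 had 1, 108 had 2, 25 had 3, 26 had 4 and 6 had all 5. The cells on either side of the threshold differed widely in genes the rule did not use. Notch3 stood at 35.3 CPM in the cells with 2 rule genes and at 521 in those with 3, and the adhesion molecule Mcam at 19.2 and 284. The cells with 2 rule genes in turn stood above those with 1, where Notch3 was at 5.67 and Mcam at 2.18. Whether mural cells remain among the other cells was not tested. The fibroblast proteoglycan Dcn stood at 14724 with 2 rule genes, at 7557 with 3, at 3659.5 with 4 and at 306 with 5.

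Part of the cells that met the rule carried fibroblast transcripts. Pdgfra, the receptor that marks the fibroblasts of this tissue, had a UMI in 94.4% of the other cells and in 10 of the 57 mural cells. These 10 cells were deep, with a median of 19385 UMIs (12017 to 26031) and 41.3% of all mural UMIs, whereas the 47 without a Pdgfra UMI had a median of 5845 (2713 to 10717). The ranges of UMI number did not overlap. Dcn lay between 25 and 446 UMIs in the 10 cells (median 83.5 per 10000 UMIs of a cell) and between 0 and 52 in the 47 (median 1.63). Lum, a second fibroblast proteoglycan, had a UMI in all 10, and in 8 of the 47 with at most 1 UMI. Among the 10, the cells with 12980 and 18218 UMIs had 4 and 2 Rgs5 UMIs and 411 and 406 Dcn UMIs. Both had 0 UMIs of Notch3 and of the muscle genes Acta2, Myh11 and Tagln. They are called mural here only because they met the rule. Of the 57 mural cells 5 had both an Xist UMI and a UMI of a Y-linked gene, as had 116 of the 4108 cells, and 4 of these 5 were among the 10. No doublet caller was run, since the authors had set an upper limit on genes per cell, and whether the 10 cells are doublets was not tested. Main counts and medians are therefore also given for the 47 cells without a Pdgfra UMI, a choice made after the values were seen.

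**Figure D1:**
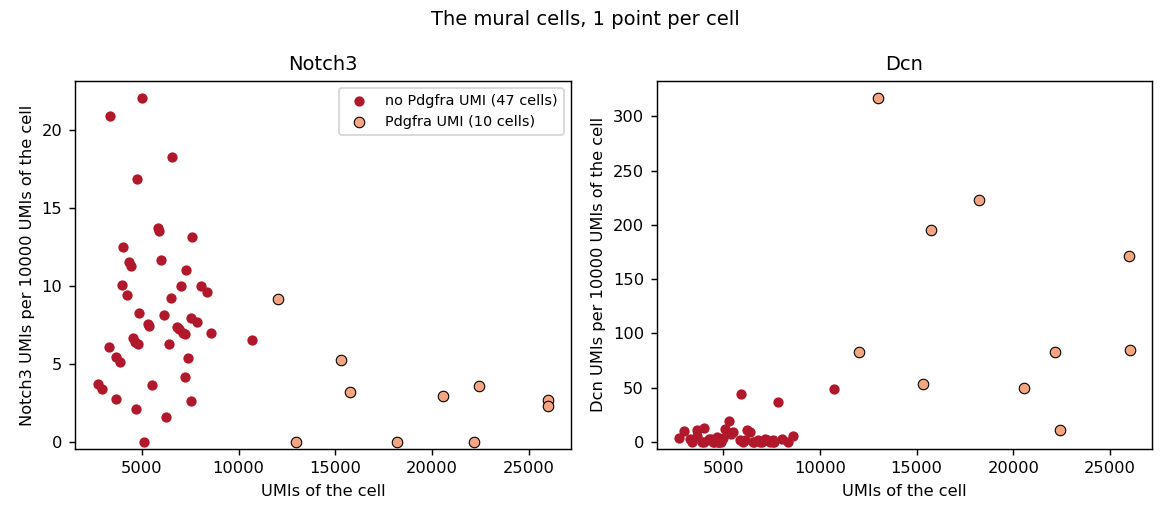
Each point is 1 of the 57 mural cells; the x axis gives its UMIs and the y axis its UMIs of Notch3 (left) or Dcn (right) per 10000 UMIs of the cell. The 10 cells with a Pdgfra UMI all hold at least 12017 UMIs and most of the Dcn, and 3 of them have 0 Notch3 UMIs, while 46 of the 47 others have Notch3; among the 47, Dcn reaches 48.5 per 10000 UMIs (median 1.63).

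Against all other cells, 6281 genes had a mean pooled level of at least 20 CPM over both sets. Of these, 625 were at least 2-fold higher in mural cells (9.95%) and 442 at least 2-fold lower (7.04%), with a median log2 ratio of 0.06 over all 6281. In the 47 cells without Pdgfra, the same genes gave 822 higher (13.1%) and 884 lower (14.1%). The shares are a background for the gene lists described below. A gene that is low in 1 set can pass this filter only by being high in the other, and then has to differ: 558 of the 6281 stood under 20 CPM in the other cells, and 311 of them were counted as higher. Of the 5351 genes with at least 20 CPM in both sets, 314 were higher and 280 lower, so most lists that it touches are also given over such genes.

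The 20 genes with the highest ratios were led by an olfactory receptor gene, a serpin and a receptor for noradrenaline. Olfr558 had 36 UMIs in 18 mural cells and 2 UMIs in all other cells, a ratio of 1771 with a wide interval (456 to 15181). This ratio depends on who is counted as mural: it was 395 with 2 or more UMIs asked of each rule gene, 228 with cells thinned before the rule, 176 with 4 of the 5 genes, and at least 252 in F columns, where the other cells had 0 UMIs. Serpina1b, of the alpha-1-antitrypsin family, had 153 UMIs in 29 mural cells and 9 in the others, 1672-fold higher (858 to 3727). Copies of the Serpina1 family are nearly identical, so which copy was read is uncertain. Adra2a, the alpha-2A adrenergic receptor, stood at 79.8 CPM against 0.110, 728-fold higher (285 to 2373). After thinning every cell to 3000 UMIs, which left 55 mural and 4040 other cells, 27.3% of mural cells had an Adra2a UMI, and 38.6% without thinning. Among the other cells these shares were 0.0495% and 0.0987%.

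Next in order came Cox4i2, a hypoxia-responsive subunit of cytochrome c oxidase, at 299.9 against 1.03 (291-fold), and the signalling genes Rasl12 (273-fold) and Rapgef5 (267-fold), which belong to the Ras and Rap GTPase systems. The protocadherin Pcdh1 was 239-fold higher, the epoxide hydrolase Ephx3 221-fold, Tusc5 182-fold, the lincRNA Gm13861 154-fold, the fatty acid carrier Fabp4 135-fold and the calcium-activated chloride channel Ano1 135-fold. The remaining 8 were Tinagl1, a basement membrane protein (773 against 6.32, 122-fold), the small GTPase Rasd1 (115-fold), the adhesion molecule Mcam (115-fold), Sgip1 of the endocytic machinery (96.4-fold), the Notch target Hey2 (95.9-fold), the nuclear receptor cofactor Nrip2 (91.7-fold), Notch3 (87.4-fold) and the stress-induced cytokine Gdf15 (85.5-fold). Leaving out the 10 cells with Pdgfra raised the ratio of 19 of these 20 genes, and it put Nrip2 at 85.2-fold. Under the alternatives 16 of the 20 were more than 1.5 times lower at least once, and the lowest value of any was 26.9, for Gdf15 with 2 of the 5 genes. Their levels were spread over many cells: no single cell held more than 19.4% of the UMIs of any of the 20.

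**Figure D2:**
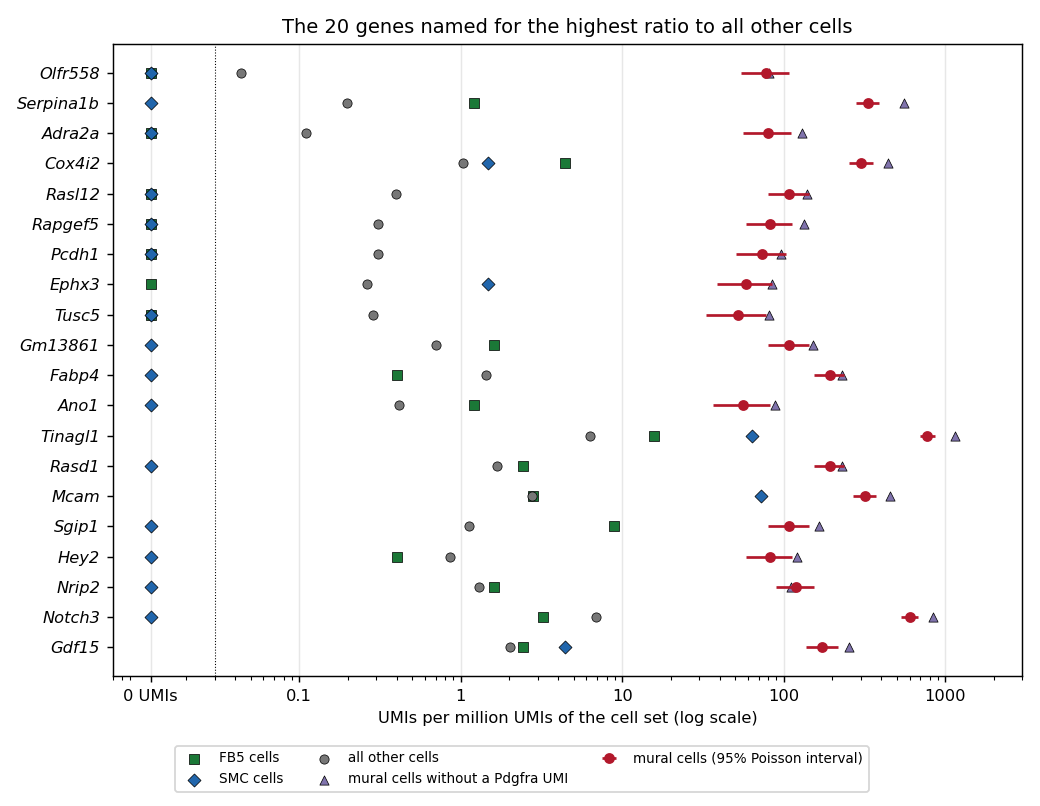
Pooled level of the 20 leading genes on a log axis, in CPM, for the 57 mural cells (red, 95% Poisson interval), the 47 without a Pdgfra UMI, all 4051 other cells, the SMC cells and the FB5 cells; sets with 0 UMIs stand at the left of the dotted line. Every mural level lies at least 85.5-fold above that of all other cells, and SMC cells had 0 UMIs of 15 of the 20 genes.

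Some of the mural markers that the rule did not use were higher in mural cells. Of 22 such genes 21 were measured and 18 passed the filter; 14 were at least 2-fold higher in mural cells and 0 lower, with a median log2 ratio of 4.26 (4.67 in the 47 cells). Of the 18, 10 stood under 20 CPM in the other cells and passed through their mural level alone; of the 8 with at least 20 CPM in both sets, 4 were higher and 0 lower (median log2 ratio 1.05). Notch3 stood at 602 CPM (mm10 chromosome 17, 32120820 to 32166852, minus strand) and was read in 53 of 57 cells, with a median of 5 UMIs and at most 12. After thinning to 3000 UMIs, 83.6% of mural and 2.00% of other cells had a Notch3 UMI, and 93.0% and 5.58% without thinning. The G protein regulator Rgs4 was 71.1-fold higher, Parm1 66.5-fold, the ADP-ribosyltransferase Art3 25.3-fold, the surface protein Tm4sf1 23.1-fold, the intermediate filament desmin (Des) 15.9-fold and the phosphatase Ptp4a3 12.2-fold. The NG2 proteoglycan gene Cspg4, a classical pericyte marker, was only 2.41-fold higher (1.52 to 3.65).

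The textbook marker P2ry14 stood at 224 in mural and 285 in other cells, and Aspn at 520.0 and 479. Kcnj8 and Abcc9, the pore and the sulfonylurea receptor of the vascular ATP-sensitive potassium channel, were 1.77-fold (1.17 to 2.57) and 2.51-fold (1.48 to 4.0) higher and had UMIs in only 10 and 11 of the 57 cells. Anpep, Heyl and Steap4 were too low for the filter, with 3, 11 and 7 UMIs.

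Several genes of the Notch pathway were higher in mural cells. Of 14 Notch genes 6 passed the filter, 5 of them at least 2-fold higher and 0 lower (median log2 ratio 3.65; 5 and 0 in the 47 cells). Of the 6, 4 (Notch3, Hey2, Jag1 and Notch1) stood under 20 CPM in the other cells and passed through their mural level alone, which fixed that they differ, so the count and the median lend no support. Beside Notch3 and Hey2 these were the ligand Jag1 (181 against 7.98, 22.7-fold), Notch1 (6.91-fold) and Hes1, a target shared with other pathways (2.55-fold). Rbpj, the DNA-binding partner of all Notch receptors, stood at 60.4 against 69.8, and Jag2 and Dll4 had 0 UMIs in mural cells. Of 6 genes of the PDGF axis 3 passed, 2 higher and 1, the fibroblast receptor Pdgfra, lower, at 147 against 480.3. Pdgfrb, whose promoter drives Cre in these mice, had a UMI in every one of the 4108 cells and was 3.69-fold higher in mural cells (1912 against 519, interval 3.44 to 3.94). Whether cells had been filtered on Pdgfrb is not given in the sources used here; a minimum of 1 UMI would weigh more in the shallower mural cells, and its part in this ratio was not tested. The ligand Pdgfa was 6.98-fold higher, and Pdgfb, the ligand that endothelium supplies, had 8 UMIs in mural cells.

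Among 18 transcription factors known from mural or intestinal stromal cells, 12 passed the filter, 7 were higher and 2 lower (7 and 2 in the 47 cells). Of the 12, 4 stood under 20 CPM in the other cells and passed through their mural level alone; of the 7 with at least 20 CPM in both sets, 3 were higher and 1 lower (median log2 ratio 0.74). Ebf1, a factor of the early B-cell factor family, was read in all 57 mural cells at 1159 against 93.8 (12.4-fold, 11.3 to 13.5). Mef2c, a partner of muscle gene programmes, was 23.3-fold higher, Foxs1 37.2-fold, Prrx1 37.3-fold, Nr2f2, the venous factor COUP-TFII, 5.28-fold, and Tbx3 3.78-fold. Myocd, the smooth muscle coactivator, was 4.37-fold higher on only 16 UMIs. Tcf21 (0.342 of the other cells' level) and Foxf2 (0.189) were lower. Tbx18, a factor used elsewhere to mark mural cells, had 0 UMIs in the whole library.

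Promoters of 4 of the higher genes, chosen after their matches were seen, are shown because each holds at least 1 of 3 short letter runs named after factors of these pathways: the TEAD run GGAATG (TEAD factors carry YAP and TAZ to DNA), the RBPJ run TGGGAA and the palindromic EBF run. Each window covers the bases 250 to 51 before the RefSeq start in GRCm38.p6, is printed 5′ to 3′ on the strand of the gene, and has the matches on either strand in capitals. Hey2 lies on the minus strand (chr10:30842834-30843033), as do Tinagl1 (chr4:130175173-130175372, 1 of its 2 promoters) and Ajuba (chr14:54577712-54577911); Crim1 lies on the plus strand (chr17:78199998-78200197).
Hey2: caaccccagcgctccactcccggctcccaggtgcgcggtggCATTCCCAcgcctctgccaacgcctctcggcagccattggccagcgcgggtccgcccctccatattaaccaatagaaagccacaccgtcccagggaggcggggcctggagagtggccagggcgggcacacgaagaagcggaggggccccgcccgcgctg
Tinagl1: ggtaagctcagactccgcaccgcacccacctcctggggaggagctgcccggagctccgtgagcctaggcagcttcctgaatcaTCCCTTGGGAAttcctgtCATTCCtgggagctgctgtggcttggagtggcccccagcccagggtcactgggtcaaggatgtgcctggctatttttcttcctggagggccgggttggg
Ajuba: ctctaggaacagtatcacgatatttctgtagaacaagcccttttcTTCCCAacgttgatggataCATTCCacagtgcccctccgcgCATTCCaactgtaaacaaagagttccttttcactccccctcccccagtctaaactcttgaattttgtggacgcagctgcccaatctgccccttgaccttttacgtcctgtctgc
Crim1: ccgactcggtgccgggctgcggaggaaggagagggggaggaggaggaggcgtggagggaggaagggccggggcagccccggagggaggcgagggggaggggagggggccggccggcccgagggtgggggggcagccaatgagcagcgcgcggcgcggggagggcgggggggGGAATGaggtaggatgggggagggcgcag

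In Hey2 the TEAD and RBPJ runs overlap and start 209 and 207 bases before the gene. In Tinagl1 an EBF run at 167 overlaps an RBPJ run at 162, with a TEAD run at 149. Ajuba has 2 TEAD runs, at 186 and 164, and an RBPJ run at 205, and Crim1 has 1 TEAD run at 79. Over the 250 bases before each start, the TEAD run was present in 12.6% of all 32851 RefSeq promoters, the RBPJ run in 21.6% and the EBF run in 0.779%. Of the 20 leading genes 14 matched, with 17 promoters, of which 5 held the TEAD run, 8 the RBPJ run and 1 the EBF run. Of the YAP/TAZ target list described below 17 of 24 genes matched, with 19 promoters, of which 7 held the TEAD run, 2 the RBPJ run and 1 the EBF run. The TEAD run was also in 6 of 15 promoters of the contractile genes and in 4 of 13 of the Notch genes, and the RBPJ run in 3 of each. The CArG box, the motif of serum response factor, was in 2 of the 15 contractile promoters, in 0 of those of the other lists named here and in 1.47% of all promoters. A match describes the letters and is not a binding site.

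Contractile genes were higher as a group. Of 18 genes 14 passed the filter, 12 were at least 2-fold higher than in all other cells and 0 lower, with a median log2 ratio of 2.16 (2.59 in the 47 cells, with 12 higher and 1 lower). Of the 10 genes with at least 20 CPM in both sets, 9 were higher and 0 lower. Acta2, smooth muscle actin, stood at 3957 CPM against 633 (6.25-fold, 5.96 to 6.56), and its level ranged from 0 to 138 per 10000 UMIs among the 57 cells (median 37.0), with 7 cells at 0. Tagln was 7.14-fold higher, the light chain Myl9 6.57-fold, the smooth muscle myosin heavy chain Myh11 10.9-fold and Lmod1, which nucleates actin filaments, 16.9-fold. Tropomyosins Tpm1 and Tpm2 were 3.36-fold and 4.19-fold higher, and caldesmon (Cald1) 4.2-fold. Phospholamban (Pln), which restrains the calcium pump of the sarcoplasmic reticulum, was 94.5-fold higher but came from 9 cells, 1 of which held 30.6% of its UMIs, and it was 39.4-fold higher (19.1 to 75) on 12 UMIs in the 47 cells. One cell also held 23.3% of the Myh11 UMIs, and Myh11 was 7.58-fold higher in the 47 cells.

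Of 8 visceral muscle markers 4 passed, 1 higher (Des) and 1 lower (Hhip), and the list summed to 861 CPM against 229, with Des alone at 753 against 47.4. Actc1 had 0 UMIs, Cnn1 7, and Actg2 stood at 53.9 against 38.2, with UMIs in 8 cells. Smtn stood at 19.4 against 28.3 and had 0 UMIs in the 47 cells.

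The 18 contractile genes together made up a median of 1.79% of a mural cell's UMIs, 1.85% (0.457% to 3.59%) in the 47 cells and 1.31% in the 10 with Pdgfra. The median was 0.164% in all other cells. A pair of reference sets of the same library is placed beside these values, namely the 65 SMC cells, which have UMIs in at least 3 of Nmur2, Actc1, Cnn1, Actg2 and Npnt, and the 194 FB5 cells, fibroblasts with UMIs in at least 3 of Sox6, Foxl1, Bmp5, Wif1 and Bmp7. Their medians were 3.71% and 1.22%. Part of the SMC rule is itself contractile, so the SMC value describes that set only.

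**Figure D3:**
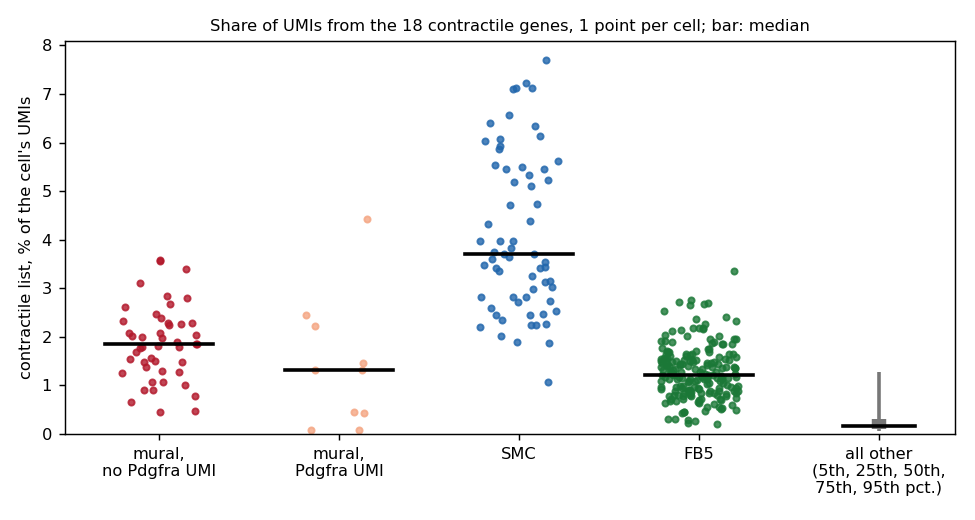
Share of a cell's UMIs from the 18 contractile genes, in percent, with 1 point per cell and a bar at the median, for the 47 mural cells without and the 10 with a Pdgfra UMI, the SMC cells and the FB5 cells; all other cells are drawn by their 5th to 95th percentiles. Mural cells (median 1.85% in the 47) lie between all other cells (0.164%) and SMC cells (3.71%), and their range overlaps that of both reference sets.

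Receptors and cyclic GMP genes of vascular tone are given next. Of 31 receptor and cyclic GMP genes 16 passed the filter, with 9 higher and 1 lower (median log2 ratio 1.34; 10 and 3 in the 47 cells). Of the 16, 4 stood under 20 CPM in the other cells and passed through their mural level alone; of the 11 with at least 20 CPM in both sets, 5 were higher and 0 lower (median log2 ratio 0.94). Beside Adra2a, the prostacyclin receptor Ptgir was 12.2-fold higher (7.43 to 19.0), the angiotensin receptor Agtr1a 2.61-fold and the endothelin receptor Ednra 2.66-fold. The subunits of the nitric oxide receptor, Gucy1a1 and Gucy1b1, were 2.46-fold and 4.25-fold higher, their downstream kinase Prkg1 3.02-fold, and the phosphodiesterase Pde3a 4.47-fold. The prostaglandin E receptor Ptger4 was the 1 lower gene in all 57, at 0.304 of the other cells' level. The alpha-1 adrenergic receptors Adra1a, Adra1b and Adra1d had 5, 9 and 1 UMIs and were not above the filter.

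Of 16 ion channel genes 9 passed, 6 higher and 1 lower (6 and 1 in the 47 cells). All 6 higher genes stood under 20 CPM in the other cells and passed through their mural level alone, so their count is largely set by the filter; neither of the 2 genes with at least 20 CPM in both sets reached the 2-fold mark. The L-type calcium channel Cacna1c was 50.9-fold higher, the ryanodine receptor Ryr2 33.5-fold, Trpc6 29.0-fold and the potassium channel accessory subunit Kcne4 3.52-fold. Of 5 markers of interstitial cells of Cajal 3 passed, 1 higher (Ano1) and 1 lower (Gja1); the receptor Kit had 2 UMIs in mural cells, and Etv1 stood at 23.7 against 33.7. Cacnb3 was lower, at 0.482 of the other cells' level.

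The Cox4 paralogs were read in another proportion in mural cells. Of 10 paired mitochondrial genes, the rule genes among them not counted, 6 passed the filter, 1 higher (Cox4i2) and 1 lower (Ndufa4), and Cox7a1 and Cox6a2, the muscle forms of their pairs, had 0 UMIs in mural cells. Cox4i2 made up 29.1% of the UMIs of the pair Cox4i2 and Cox4i1 in mural cells (exact interval 25.1% to 33.4%), 36.7% in the 47 cells and 0.147% in all other cells. Cox4i1 itself stood at 729 against 699. As a description, since both are rule genes, Ndufa4l2 made up 78.1% of its pair with Ndufa4 (0.991% in other cells) and Higd1b 28.3% of its pair with Higd1a (0.662%). Ndufa4, not a rule gene, was lower in mural cells, at 0.407 of the other cells' level (0.326 to 0.501) and at 0.221 in the 47 cells. The 28 other oxidative phosphorylation genes measured as a list all passed the filter, with 0 higher, 0 lower and a median log2 ratio of 0.11. Of 15 hypoxia and glycolysis genes 8 passed and 2 were higher, 1 of them through its mural level alone: Epas1, the HIF-2 alpha subunit, 5.24-fold and the glycolytic enzyme Pfkl 2.38-fold. Hif1a stood at 51.8 against 37.2.

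**Figure D4:**
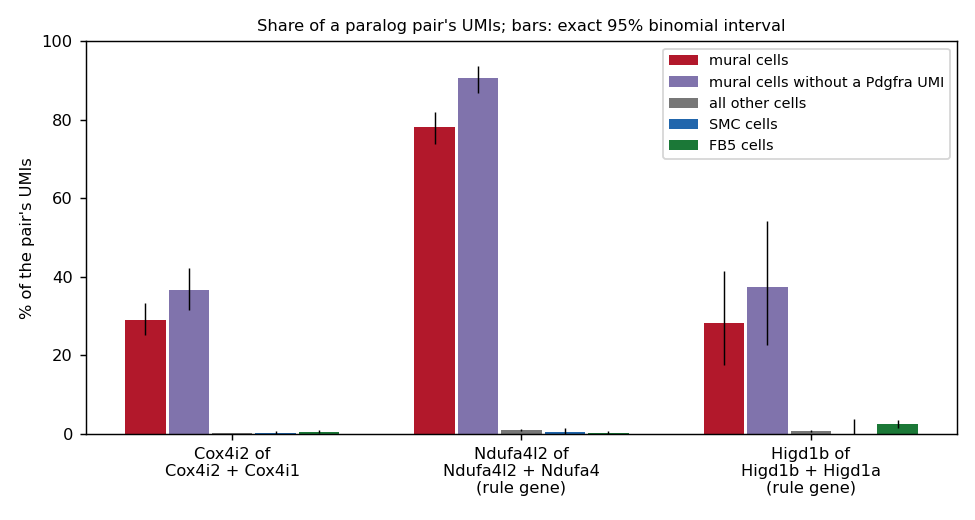
Share of a paralog pair's UMIs that came from the first gene, in percent, with exact 95% binomial intervals, for 5 cell sets; Ndufa4l2 and Higd1b are genes of the rule. Cox4i2, which the rule did not use, reaches 29.1% in mural cells against 0.147% in all other cells, 0.141% in SMC cells and 0.614% in FB5 cells.

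Of 17 growth factor genes for vessels and nerves 11 passed, 3 higher and 2 lower, and the median log2 ratio was 0.41 in all mural cells but -0.66 in the 47. Of the 8 with at least 20 CPM in both sets, 1 was higher and 2 lower (median log2 ratio -0.03). The TIE2 ligands Angpt2 and Angpt1 were 13.1-fold (9.52 to 17.7) and 6.03-fold higher, and the neurotrophin Bdnf 12.2-fold. Vegfc, the lymphatic growth factor that the study follows in this tissue, stood at 69.1 in mural and 121 in other cells, a ratio of 0.572 (0.391 to 0.808) and of 0.578 in the 47 cells. Its relative Vegfd was lower (0.428 of the other cells' level), with 54.5% of its UMIs in 1 cell, and Vegfa had 6 UMIs.

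Of 24 YAP/TAZ targets 19 passed, 5 higher and 5 lower (median log2 ratio 0.61), and in the 47 cells 8 were higher and 5 lower. Of the 14 with at least 20 CPM in both sets, 4 were higher and 2 lower (median log2 ratio 0.65). The LIM protein Ajuba was 10.5-fold higher (7.48 to 14.3), the transmembrane protein Crim1 6.18-fold, Arhgef17 5.67-fold, the matricellular Ctgf 5.19-fold and Myof 2.17-fold. Cyr61, the target most often paired with Ctgf, was 1.60-fold higher in all mural cells and 2.50-fold in the 47. Tissue factor (F3), Igfbp3, Foxf2, Gadd45a and Ccdc80 were lower, at 0.217, 0.235, 0.189, 0.352 and 0.472 of the other cells' level. Ankrd1 had 0 UMIs in mural cells.

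Of 16 genes of the Hippo pathway and TEAD family 12 passed and 0 were higher or lower (1 higher and 1 lower in the 47 cells). Lats2 3-prime ends stood at 82.0 against 53.3, Yap1 at 53.9 against 42.3, Wwtr1, which encodes TAZ, at 106 against 131, and Tead1 at 138 against 107. Lats1 had 9 UMIs in mural cells. A read at the 3-prime end does not show whether the deleted part of Lats1 or Lats2 was present.

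Matrix genes are given as an interstitial list and a basement membrane list. All 22 interstitial matrix genes passed the filter, 0 higher and 15 lower, with a median log2 ratio of -1.28. In the 47 cells 21 were lower and the median was -2.70. Dcn stood at 5321 against 11469 over all mural cells and at 673 in the 47, and Col1a1 at 1174 against 3079 and at 199. The 10 cells with Pdgfra thus carried most of the Dcn and Col1a1 UMIs of the mural set.

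Of the basement membrane genes 16 passed, 4 higher and 4 lower (median log2 ratio -0.22; 6 and 5 in the 47 cells). Of the 12 with at least 20 CPM in both sets, 1 was higher and 3 lower (median log2 ratio -0.36). The laminin gamma-3 chain Lamc3 was 85-fold higher (53.6 to 134), Col4a5 3.94-fold, the laminin beta-2 chain Lamb2 3.79-fold and agrin 2.22-fold. Lamb1 (0.445), perlecan (Hspg2, 0.383), Nid2 (0.277) and Col15a1 (0.259) were lower. The main network collagens Col4a1 and Col4a2 were 1.57-fold and 1.72-fold higher, under the 2-fold mark, and 1.88-fold and 2.13-fold in the 47 cells. Of 13 integrin genes 6 passed and 3 were higher, 2 of which passed through their mural level alone: the laminin-binding Itga7 51.3-fold, Itga4 18.6-fold and the collagen-binding Itga1 5.84-fold.

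The 12 genes with the lowest ratios were Dchs1, Fgfr2, Mmp19, Myh10, Adamtsl2, P2ry1, Ptgs1, Adamdec1, Hs3st1, Robo2, Col6a5 and Frzb. All but Adamdec1 had at most 13 UMIs in mural cells, so their ratios carry wide intervals, from 0.0561 (0.00142 to 0.313) for the protocadherin Dchs1 to 0.136 (0.0371 to 0.349) for the Wnt inhibitor Frzb. Mmp19, a matrix protease, did not pass the level filter and stood at 0.0600 (0.00152 to 0.334). These ratios depend on who is counted as mural. With 2 of the 5 rule genes only Fgfr2 (0.460), Ptgs1 (0.432), Adamdec1 (0.465) and Col6a5 (0.439) stayed under 0.5. The rest of the 12 then ran from 0.533 (P2ry1) to 1.02 (Mmp19). Adamdec1, a protease of intestinal villus fibroblasts, stood at 455 against 3664 (0.124, 0.108 to 0.142), at 1018 in the 10 cells with Pdgfra and at 58.8 in the 47. The level in the 47 was 0.0161 of that in the other cells. Free RNA of the suspension could make up to 10.1% of the UMIs. This bound is an average, set by the UMIs of Y-linked genes in the cells where Xist had 5 or more. An Adamdec1 level of this size in the 47 was therefore not read as expression. The levels of Dcn, Col1a1 and Cxcl12 in the 47 cells also lie under 10.1% of those in the other cells. Dcn was uneven among them: 3 cells held 26, 29 and 52 Dcn UMIs, with 1, 0 and 0 Adamdec1 UMIs. The free RNA of the mural cells themselves was not measured, and its part in these levels was not tested.

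Immediate early genes were higher in mural cells. Of 15 genes 14 passed, 12 higher and 0 lower (13 and 0 in the 47 cells), with a median log2 ratio of 1.33. Atf3 was 7.26-fold higher (6.30 to 8.33), Ier3 4.87-fold, Junb 3.83-fold, Nr4a1 3.25-fold and Fos 2.57-fold (3017 against 1172). These genes also respond to dissociation, whose part was not tested. Of 14 cell cycle genes 3 passed, 1 higher and 0 lower. The cell cycle inhibitor Cdkn1a was 8.0-fold higher (367 against 45.8), while Pcna stood at 53.9 against 27.5 and Ccnd1 at 92.8 against 56.0. The mitotic genes Mki67, Cdk1, Ccnb2 and Birc5 had 0 UMIs in mural cells and 0.504, 1.18, 3.79 and 0.768 CPM in the others, levels too low to be told from 0 at the mural depth.

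Of 22 chemokine and cytokine genes 14 passed, 3 higher and 5 lower (3 and 7 in the 47 cells). The neutrophil chemokine Cxcl1 was 8.11-fold higher (7.01 to 9.34), the macrophage factor Il34 6.24-fold and the monocyte chemokine Ccl2 2.77-fold. Cxcl12, Cxcl14, Cxcl16, Il33 and Vcam1 were lower, and Cxcl12 stood at 332 against 1183 and at 25.7 in the 47 cells.

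**Figure D5:**
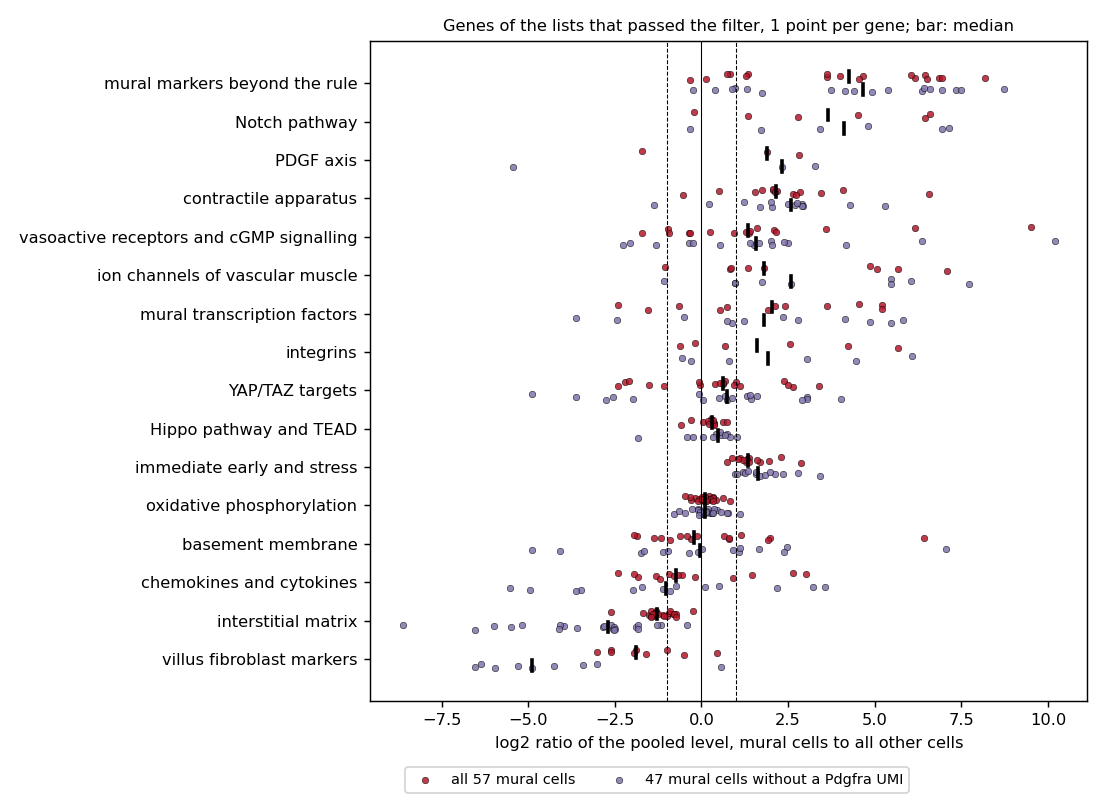
Log2 ratio of the pooled level in mural cells to that in all other cells, with 1 point per gene that passed the filter in each list (bounds for genes with 0 UMIs in 1 set), for all 57 mural cells (red) and the 47 without a Pdgfra UMI (purple); bars mark medians and dashed lines the 2-fold marks. Of the mural markers 10 of 18 and of the Notch genes 4 of 6 passed the filter through their mural level alone and had to lie to the right. The medians of villus fibroblast markers (-1.90) and interstitial matrix (-1.28) lie further down in the 47 cells.

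Marker lists of other cell types gave few genes above the filter outside muscle and fibroblasts. Of 10 endothelial genes only Plvap passed the filter (34 UMIs, 5.63-fold higher, in 12 cells); Pecam1 and Cldn5 had 0 UMIs (Pecam1 in the whole library, from which the authors had removed cells with endothelial and immune markers), Cdh5 and Emcn 2 each, and the list summed to 123 CPM against 28.5. Immune, epithelial, mesothelial and erythrocyte lists had 0 genes above the filter and summed to 38.8, 12.9, 0 and 0, with Ptprc, Epcam, Msln and Hbb-bs at 0 UMIs. Of the glial genes Sox10, S100b and Gfap were at 0, while the chaperone Cryab, which muscle also makes, stood at 347 against 180.4. Of the lymphatic genes Prox1, Flt4 and Mmrn1 were at 0 and Pdpn, shared with fibroblasts, was at 0.239 of the other cells' level. Of 10 villus fibroblast markers 9 passed, 0 higher and 7 lower. In the 47 cells 8 were lower. The vFB3, FB4 and FB5 fibroblast lists had 0 higher genes, and 3 of 5, 3 of 8 and 2 of 6 were lower. In the 47 cells these became 3, 8 and 4, with median log2 ratios of -1.73, -2.35 and -1.56.

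Set against the SMC cells (median 8292 UMIs), 691 of 6325 genes were at least 2-fold higher in mural cells (10.9%) and 507 lower (8.02%), or 808 (12.8%) and 876 (13.8%) for the 47 mural cells without Pdgfra. No cell met both rules. Contractile genes other than the 3 of the SMC rule, which were left out, were mostly lower than in SMC cells, with 2 of 14 genes higher in mural cells and 9 lower: Acta2 stood at 3957 against 10295 in SMC cells and Myh11 at 712 against 2324, whereas Des was nearly level at 753 and 741. Cald1 was 2.06-fold higher in mural cells, and so was Pln, on 1 SMC UMI (71.3-fold, 12.2 to 2875; 29.8-fold for the 47 mural cells).

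Notch3 had 279 UMIs in mural cells and 0 in SMC cells, which puts it at least 135-fold higher. Of the Notch genes with at least 20 CPM in both sets 2 of 3 were higher than in SMC cells, and of such mural markers 4 of 9. Over all 5263 genes with at least 20 CPM in both of these sets, 338 were higher and 248 lower. Cox4i2 was 202-fold higher on 1 SMC UMI (35.7 to 8050.2), Rgs7bp, a binding protein of the R7 family of G protein regulators, 192-fold (33.9 to 7648), Art3 153-fold (26.8 to 6095) and Bdnf 134-fold (23.4 to 5347), each also on 1 SMC UMI. Serpina1b and Parm1 had 0 SMC UMIs and were at least 74.3-fold and 49.5-fold higher, and the glycosyltransferase Galnt16 was 51.0-fold higher on 1 SMC UMI (8.56 to 2069.5).

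The genes lowest in mural relative to SMC cells were Agt, Hhip, Zfp536, Psd, Kcnma1, Sntg2, Tes and Nov. Angiotensinogen (Agt) stood at 584 in SMC cells and had 1 UMI in mural cells, and the hedgehog-binding protein Hhip stood at 1248 and had 3 UMIs. The large-conductance potassium channel Kcnma1 stood at 84.5 and had 1 UMI. These 8 genes had 1 to 8 UMIs in mural cells.

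Set against the FB5 cells (median 12348.5 UMIs), 767 of 6345 genes were at least 2-fold higher in mural cells (12.1%) and 611 lower (9.63%), or 870 (13.7%) and 1001 (15.8%) for the 47. One mural cell met the FB5 rule too and was left out of the FB5 side. The channel pair Kcnj8 and Abcc9 was higher in FB5 cells, at 551 against 60.4 and at 247 against 38.8, so that mural cells stood at 0.110 (0.0726 to 0.159) and 0.157 (0.0926 to 0.251) of the FB5 level. Acta2 and Tagln were close in both sets, at 3957 against 3057 and 3765 against 3545, but Myh11 was 3.21-fold and Lmod1 31.0-fold higher in mural cells. Of the contractile genes with at least 20 CPM in both sets 4 of 11 were higher and 1 lower. Over all 5221 genes at that level in both sets, 367 were higher and 325 lower.

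The 8 genes highest relative to FB5 cells were Fabp4, Rgs7bp, Art3, Serpina1b, the lipase Lipg, the metal transporter Slc11a1, the neuropeptide Y receptor Npy1r and Apold1. Slc11a1 had 0 FB5 UMIs and was at least 254-fold higher, and Fabp4, Lipg, Npy1r and Apold1 each had 1 FB5 UMI. Npy1r, which answers a co-transmitter of noradrenaline, stood at 90.6 in mural cells, 2.96 in SMC cells and 0.402 in FB5 cells. Lowest were Rerg, Tspan13, Wnt5a, Slitrk6, Cd38, Myh10, Tmem158 and Hoxd8: Wnt5a stood at 178 in FB5 cells with 3 UMIs in mural cells, and Tmem158 at 509 against 21.6. Immediate early genes differed from both sets, with 12 of 14 higher than in FB5 cells (10 of 12 with at least 20 CPM in both sets) and a median log2 ratio of 3.04, against 1.61 relative to SMC cells. Over all genes the higher share against FB5 cells was 12.1%, and 367 of the 5221 with at least 20 CPM in both sets.

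Mural cells also varied among themselves. The 47 cells without Pdgfra were divided at the median of their contractile share into 23 lower and 23 higher cells, a range of a score and not 2 types, with 11 cells within 10% of the median. Acta2, a gene of the score, stood at 1697 in the lower and 6105 in the higher cells. Notch3 was nearly level (789 and 871). The lower cells had more Cxcl1 (1078 against 343), with 87 of 127 UMIs in 3 cells, and more Ccl2 (603 against 137), with 38 of 71 in 3 cells. They also had more Agtr1a (263 against 89.2) and Art3 (518 against 233). The higher cells had more Fn1, 4.85-fold (2.16 to 12.8) with 26 of 42 UMIs in 3 cells, more Foxs1, 4.24-fold, and more Npy1r, 3.72-fold. The median depth was 4756 UMIs in the lower and 6236 in the higher cells.

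A second division was chosen after the values were seen. Of the 47 cells 12 had a UMI of Kcnj8 or Abcc9 and 35 had neither, at like median depths of 5643 and 5845 UMIs. The mark M was carried by 8 of the 12 and by 14 of the 35, and its part in the differences was not tested. Cells with the channel had 32 UMIs of the matrix protein Postn against 1 in the 35, though 1 cell held 18 of them. Their Dcn level was 9.41-fold higher (6.63 to 13.6), with 107 of 141 UMIs in 3 cells and a level under the free RNA limit in the 35, and their Fn1 level 8.63-fold higher, with 26 of 40 UMIs in 3 cells. Cells without it had more Mef2c (773 against 224), Tm4sf1 (698 against 42.0), Jag1 (279 against 69.9), Cdkn1a (649 against 83.9) and Fabp4 (304 against 14). Stress-responsive genes differed as well: Atf3 (843 against 266) and Junb (4500 against 2826) were higher without it, and Dusp1 (624 against 1007) lower. Rasd1 had 62 UMIs in 16 of the 35 cells and 0 in the 12. Notch3 (713 against 883) and Acta2 (4211 against 4026) had intervals of the ratio that included 1 (0.580 to 1.11 and 0.913 to 1.20). Cells where the channel was merely not captured cannot be told from cells that lack it at this depth.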

How the data were processed

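Sorted intestinal stromal cells were profiled with 10x Genomics Chromium 3' v3 chemistry. The submitters' processing notes name Cell Ranger 3.0.2, Seurat 3.0.1 and mm10. Values deposited by the authors are the natural log of 1 plus UMIs per 10000 UMIs of the cell. All 13789523 nonzero values gave whole UMI counts (tolerance 0.001), so UMI numbers were read back and pooled per cell set. A fold or ratio against 0 UMIs used 3 counts over the set as its bound, and intervals cover counting error only. Shares of cells with a UMI were also taken after thinning each cell to 3000 UMIs. Genes with a mean level of at least 20 CPM (UMIs per 1000000) over both sets were described, and a ratio of at least 2 or at most 0.5 was counted.

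Named genes were the 20 highest and 12 lowest ratios to all other cells among genes with a UMI in at least 30% of a set and shares at least 15 points apart, 8 at each end against SMC and FB5 cells, and any gene of the lists. Members, lists and this rule were chosen with earlier results of these data known. Alternatives changed the membership rule, pooling, scaling, filter, fold and free RNA. Leaving out cells with a Pdgfra UMI, or with 10000 or more UMIs, was added after seeing the data. The computation was checked on simulated counts. Python 3.11.15, numpy 2.4.6, scipy 1.17.1 and pandas 2.3.3 were used, GENCODE M21 gave positions and RefSeq (GRCm38.p6) promoters.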

Additional observations from a re-analysis of the deposited data

How the results depend on the processing

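No paired analysis was possible because the results come from 1 library and from no test. The number of mural cells was 57 and became 165 with 2 of the 5 genes, 32 with 4, 26 in M and 31 in F columns. Against all other cells (625 genes higher, 442 lower), counts became 143 and 27 with 2 of the 5 genes, 331 and 154 at 3-fold, 1144 and 1061 with a filter of 5 CPM and 321 and 247 with 50. The lower genes became 769 with cells thinned before the rule, 666 with the mean over cells and 762 without the cells with a Pdgfra UMI and with the level filter applied anew (884 over the genes of the main filter), and without cells of 10000 or more UMIs 941 were higher and 777 lower. Against SMC cells (691 and 507), counts became 389 and 229 at 3-fold, 1458 and 1234 with the lower filter, 332 and 215 with the higher and 1127 and 821 in M columns. The genes lower than in SMC cells became 795 with thinned cells, 761 without Pdgfra (filter applied anew; 876 over the genes of the main filter) and 789 without the deep cells. Against FB5 cells (767 and 611), counts became 472 and 360 with 2 of the 5 genes, 457 and 290 at 3-fold, 1482 and 1233 with the lower filter and 375 and 295 with the higher. The genes lower than in FB5 cells became 979 with thinned cells and 918 without the deep cells. Of 416 values of the 32 leading ratios under 13 alternatives, 332 stayed within the 95% exact counting interval of the main ratio, 83 left it on the same side of 1, and 1 turned: Mmp19 stood at 1.02 with 2 of the 5 genes. With 57 cells of 1 library, a gene of few UMIs cannot be ranked, and a count of 0 does not show that a gene is off.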
